A study of Rattus norvegicus with 17 samples.

Results

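Of the 22664 genes with a value above or below 0 in at least 1 hippocampal library, 32 encode an ion channel, a neurotransmitter receptor or a protein of such a complex and carried a gene symbol in the lists used here. They were taken as the genes whose symbol starts with Kcn, Cacn, Scn, Hcn, Clcn, Trp, Ryr, Itpr, Gri, Grm, Gabr, Gabb, Chrn, Chrm, Htr, Drd, Adra, Adrb or P2r. Symbols came from the study's lists of differentially methylated genes (Site #1 vs Site #2 and, in part, Site #1 vs Site #3), so that the 32 genes are those of these families that the study had listed for DNA methylation in the same project, not for RNA. Of 34 genes with such a symbol, P2rx4 and Cacng5 were left out by the rule of choice, and 0 were at exactly 0 in all libraries. The first list alone gave 20 of the 32 genes, the second list alone gave 8, and 4 were on both. They comprised 7 potassium channel genes, 7 calcium channel genes, 3 sodium channel genes, 2 TRP channel genes, 2 intracellular calcium release channel genes, 4 genes of the glutamate receptor group, 3 GABA receptor genes, 3 purinergic receptor genes and 1 serotonin receptor gene.

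Ion channels set how a hippocampal neuron responds to input. Voltage-gated sodium channels start the action potential, potassium channels end it and set the resting level, and calcium channels couple it to transmitter release and to signalling in the cell. Glutamate released at excitatory synapses opens AMPA, kainate and NMDA receptors, GABA acts on chloride-conducting and G protein-coupled receptors at inhibitory synapses, and extracellular ATP acts on purinergic receptors of neurons and glia.

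RNA-Seq was carried out on the whole hippocampus of untreated male SAS Sprague Dawley rats kept at 3 laboratories, with 1 library per rat: 5 rats at Site #1, 6 at Site #2 and 6 at Site #3. The comparisons ask how far expression in nominally alike control animals differs between laboratories. Rats of Site #1 and Site #2 came from Charles River at 8.3 weeks of age, were housed singly on a LabDiet chow and were sacrificed 18 to 19 days after arrival, with saline as the dissection buffer. Rats of Site #3 came from Harlan (Envigo) at 8.0 weeks of age, were housed in pairs on an NIH open formula diet and were sacrificed after 27 days, with bubbled artificial cerebrospinal fluid as the buffer. Site #3 differs from the others in vendor, chow, housing, days and buffer at once, and these cannot be told apart. The values deposited by the authors are log2 expression levels that had been normalized across the libraries, and all levels and differences below are on that scale. They keep no read counts, so that the depth behind each is unknown, and precision is limited by the number of rats. Nor are they per gene length, so that levels were not compared between genes. The neuronal marker Grin1 was high in every library, between 14.43 and 14.69.

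None of the 32 genes passed the threshold between sites. No member was a differentially expressed gene (DEG), taken as an adjusted p under 0.05, in any of the 4 comparisons (limma with a mean-variance trend, Benjamini-Hochberg adjustment over 22664 genes). Among all genes tested, 0.0% were DEGs in Site #1 vs Site #2, 0.101% in Site #1 vs Site #3, 1.05% in Site #2 vs Site #3, and 0.768% in the comparison of Site #3 with the mean of the other sites. At the same adjusted p, the study reported more DEGs with DESeq2 in each pair of sites. That no member was called is thus a result of this test on the deposited values. At an unadjusted p under 0.05 there were 1, 2, 8 and 6 members, which is 3.12%, 6.25%, 25.0% and 18.8% of them, beside 6.74%, 8.17%, 14.8% and 12.0% of all genes. The CPM of a gene, its reads in 1000000 reads, was approximated from the deposited values, without counts. Among genes averaging at least 1 CPM the shares in Site #2 vs Site #3 were 24.1% of 29 members and 21.1% of 13679 genes. Split by direction the members at that p were 0 higher and 1 lower in Site #1 vs Site #2 (3.53% and 3.21% of all genes), 2 and 0 in Site #1 vs Site #3 (3.76% and 4.41%), 6 and 2 in Site #2 vs Site #3 (7.24% and 7.55%), and 3 and 3 for Site #3 against the mean of the others (6.08% and 5.94%). The median over members of the absolute difference was 0.05 in Site #1 vs Site #2, 0.06 in Site #1 vs Site #3 and 0.06 in Site #2 vs Site #3, where the medians were 0.02, 0.02 and 0.03 over all genes tested and 0.05, 0.04 and 0.06 over the 13679 genes averaging 1 CPM or more. The members' signed medians were -0.03, -0.02 and 0.01, and those of all genes tested were 0.00.

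The 95% intervals set a limit, on the deposited scale, to what could have been missed. For low genes such as Kcne3 and Htr1d, which are in the counts that follow, compressed values make the intervals narrow. There they set no such limit to the real difference. In each pair of sites the interval of 31 of the 32 differences lay within 0.5 log2 units on either side of 0, and within 0.25 units for 22, 21 and 21 of them. The median half-width was 0.15, 0.15 and 0.12 in the same order. Against the mean of the other sites, the members that were higher at Site #3 at an unadjusted p under 0.05 included Cacna1h (0.17) and Itpr2 (0.17), and those that were lower included P2rx5 (-0.13) and P2ry2 (-0.11). For Cacna1h the SE was 0.07, the 95% interval 0.02 to 0.31 and the adjusted p 0.34 (limma). For P2rx5 the SE was 0.05, the 95% interval -0.23 to -0.02 and the adjusted p 0.329 (limma). Differences of a member ran from -0.10 to 0.12 in Site #1 vs Site #2, from -0.14 to 0.20 in Site #1 vs Site #3, and from -0.17 to 0.27 in Site #2 vs Site #3. In whole tissue, fewer cells of a type and less RNA per cell cannot be told apart.

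**Figure D1:**
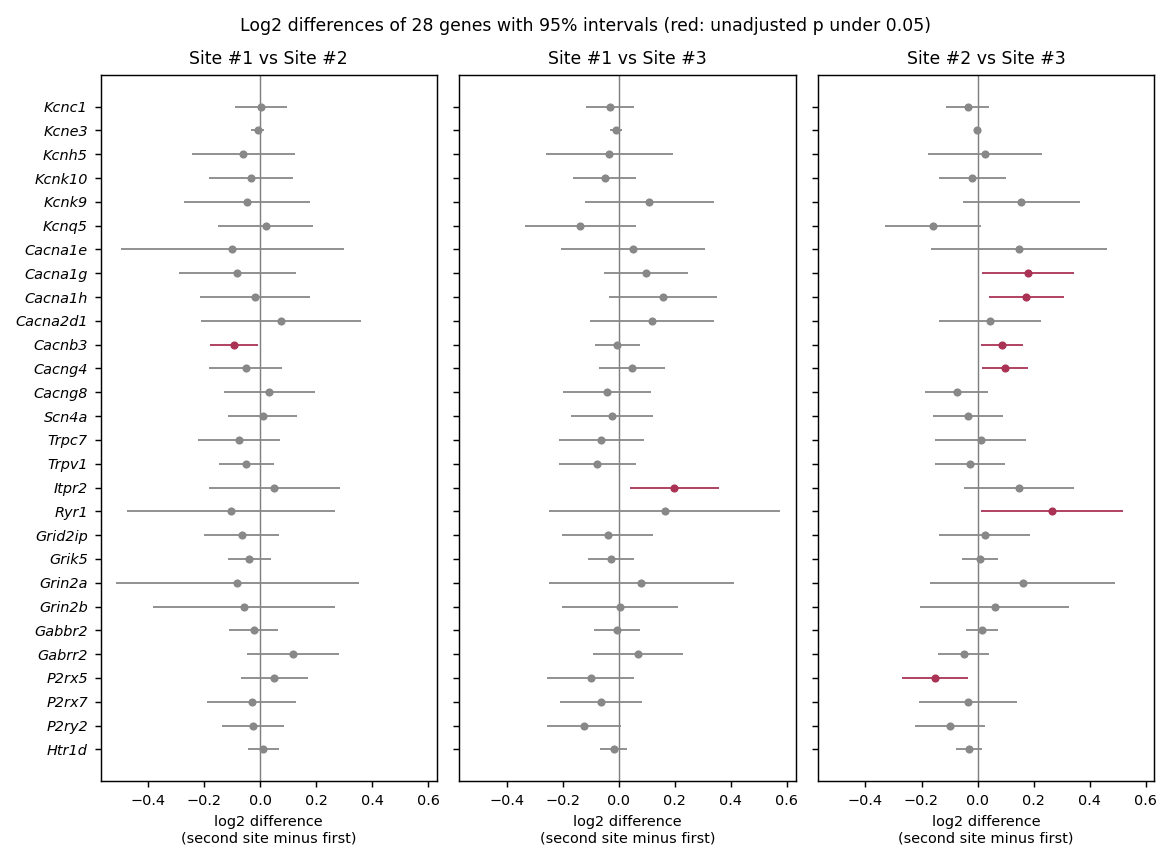
Log2 differences (x axis, second site minus first) of 28 genes (y axis) in the 3 pairs of sites, with points for the fitted difference and bars for its 95% interval. Red marks an unadjusted p under 0.05, which 1, 1 and 6 of the genes shown have. No gene passed after adjustment over all genes.

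Libraries of 2 sites did not overlap in 1 member between Site #2 and Site #3, where 1.95% of all genes had no overlap, and in 0 members in Site #1 vs Site #2 (0.878%), Site #1 vs Site #3 (1.38%) and Site #3 vs the other sites together (0.344%). A mean of about 1 CPM was reached by 29 of the 32 members, and Kcne3 and Htr1d were among those below it. Of the sodium channel genes, Scn4a, best known from skeletal muscle, had site means of 7.08, 7.09 and 7.05 and differed by -0.03 between Site #2 and Site #3.

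Receptors for GABA were represented by Gabbr2, the G protein-coupling subunit of the GABA-B receptor, and Gabrr2, a rho subunit, among others. Gabbr2 had site means of 14.10, 14.08 and 14.09 at Sites #1, #2 and #3. Gabrr2 was 6.80 ± 0.18 at Site #1 (SD, n = 5) and 6.92 ± 0.07 at Site #2 (SD, n = 6), a difference of 0.12 (SE 0.07, adjusted p = 0.801, limma), with 1 rat of Site #1 at 7.08, above all others. Gad2, which makes GABA, stood at 13.62 ± 0.11 at Site #2 (SD, n = 6) and 13.48 ± 0.05 at Site #3 (SD, n = 6), a difference of -0.14 (adjusted p = 0.195, limma).

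**Figure D2:**
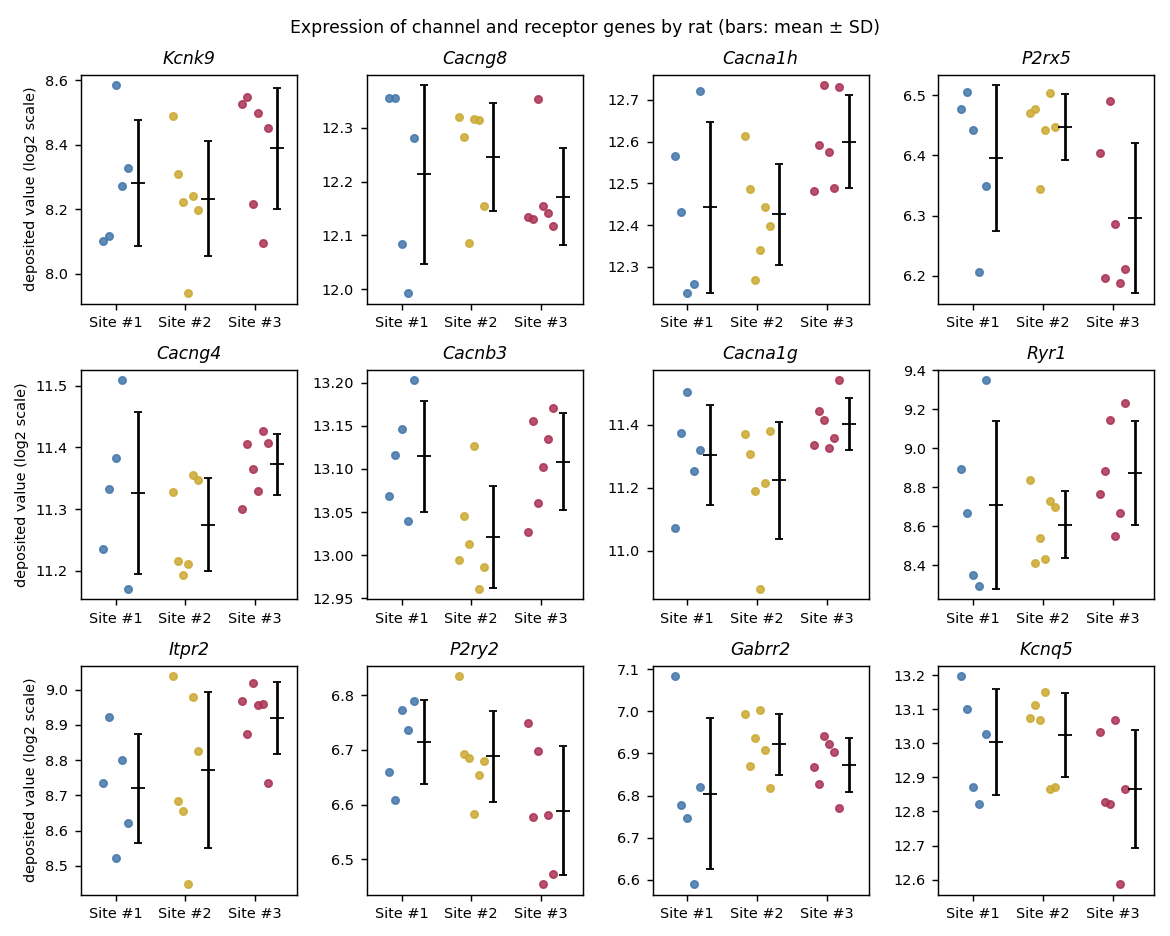
Deposited values on the log2 scale (y axes, each with its own range) of 12 genes in the rats of the 3 sites (x axes), with bars for the mean ± SD. The ranges of each of these genes overlap between every pair of sites.

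The calcium channel genes were grouped by the prefix Cacn alone. They supplied 4 of the 6 members higher at Site #3 than at Site #2 at an unadjusted p under 0.05. By that measure 7.24% of all genes were higher, and 1358 of the 13679 averaging 1 CPM or more. Of the 7 calcium channel genes, 6 had a positive difference, as had 11447 of all 22664 genes tested, and the median was 0.10. The 4 were Cacna1h and Cacna1g, pore-forming subunits of T-type channels that open at low voltage and support burst firing, Cacnb3, a cytoplasmic beta subunit of high-voltage-activated channels, and Cacng4, which belongs to the auxiliary subunits that traffic AMPA receptors. None passed after adjustment. Between Site #1 and Site #3, 5 of the 7 had a positive difference, as had 11979 of all genes tested. At an unadjusted p under 0.05 there were 0 of the 7 in that pair, beside 8.17% of all genes. Against the mean of the other sites, 1 of the 7 was higher at Site #3 by that measure, as were 6.08% of all genes. From Site #1 to Site #2, 5 of the 7 had a negative difference, as had 11477 of all genes. Cacna1h had values of 12.24, 12.26, 12.43, 12.57 and 12.72 at Site #1. It ran from 12.27 over a median of 12.42 to 12.61 at Site #2 and from 12.48 over a median of 12.58 to 12.74 at Site #3. The 3 ranges overlapped, and that of Site #1 held the lowest value of all. Site #3 exceeded Site #2 by 0.17 (SE 0.06, 95% interval 0.04 to 0.31, adjusted p = 0.202, limma) and Site #1 by 0.16 (SE 0.09, adjusted p = 0.716, limma). Cacna1g differed by 0.18 between Site #2 and Site #3 (95% interval 0.01 to 0.34), with 1 rat of Site #2 at 10.88 and the other libraries of these sites between 11.19 and 11.54. For Cacng4 the difference was 0.10 (95% interval 0.02 to 0.18), and its closest relative among the members, Cacng8, differed by -0.07 the other way.

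Cacnb3 was the 1 member with an unadjusted p under 0.05 between Site #1 and Site #2, where 3.21% of all genes were lower at Site #2 by that measure. Its values were 13.04, 13.07, 13.12, 13.15 and 13.20 at Site #1. At Site #2 they ran from 12.96 to 13.13 with a mean of 13.02, and at Site #3 from 13.03 to 13.17 with a mean of 13.11. Site #2 was thus the lowest of the 3 sites, and its highest rat lay inside both other ranges. The difference from Site #1 to Site #2 was -0.09 (SE 0.04, 95% interval -0.18 to -0.01), with an adjusted p of 0.702 (limma). From Site #2 to Site #3 it was 0.09 (SE 0.03, adjusted p = 0.249, limma), and from Site #1 to Site #3 -0.01.

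Purinergic receptor genes had negative differences in 3 of 3 cases between Site #2 and Site #3. P2rx5, an ATP-gated channel subunit, was at 6.21, 6.35, 6.44, 6.48 and 6.51 at Site #1. It ran from 6.34 over a median of 6.46 to 6.50 at Site #2, and from 6.19 over a median of 6.25 to 6.49 at Site #3. In 4 rats of Site #3 it lay below every rat of Site #2, and in the other 2 inside the range of Site #2. The difference was -0.15 (SE 0.05, 95% interval -0.27 to -0.03, adjusted p = 0.21, limma). P2ry2, a G protein-coupled receptor for ATP and UTP, was 6.71 ± 0.08 at Site #1 (SD, n = 5) and 6.59 ± 0.12 at Site #3 (SD, n = 6), a difference of -0.13 (SE 0.06, adjusted p = 0.647, limma). P2rx7, the ATP-gated channel of microglia, differed by -0.03 between Site #2 and Site #3. Summed markers of microglia had a log2 level of 12.83 to 13.10 at Site #1, 12.71 to 13.03 at Site #2 and 13.01 to 13.14 at Site #3. Of the 6 markers, 5 had a higher mean at Site #3 than at Site #2, and the median difference of the 6 was 0.18. At an unadjusted p under 0.05, 2 were higher (7.24% of all genes were), and 0 were called. Libraries of these sites did not overlap in 1 marker (1.95% of all genes). The part of microglia in the purinergic values was not tested.

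Both genes for channels that release calcium from the endoplasmic reticulum had their highest mean at Site #3. Itpr2, the inositol trisphosphate receptor that predominates in astrocytes, was at 8.52, 8.62, 8.73, 8.80 and 8.92 at Site #1. It ran from 8.45 over a median of 8.75 to 9.04 at Site #2 and from 8.73 over a median of 8.96 to 9.02 at Site #3. At Site #3, 5 of the 6 rats were between 8.88 and 9.02, while Site #2 covered the whole range of the other sites and more. Site #3 exceeded Site #1 by 0.20 (SE 0.07, 95% interval 0.04 to 0.36), which was the smallest p among the members in that pair, with an adjusted p of 0.467 (limma). Summed astrocyte markers overlapped, at 16.46 to 16.63 at Site #1 and 16.46 to 16.67 at Site #3. Of the 4 markers 0 were called. At an unadjusted p under 0.05 Gja1 was higher at Site #3 (0.17) and Aldh1l1 lower (-0.18), as were 3.76% and 4.41% of all genes. The part of astrocytes in the Itpr2 values was not tested. Ryr1, the ryanodine receptor best known from skeletal muscle, had the largest difference of any member, 0.27 between Site #2 and Site #3 (SE 0.12, 95% interval 0.01 to 0.52, adjusted p = 0.312, limma). It also had 1 of the widest spreads, with 8.30, 8.35, 8.67, 8.90 and 9.35 at Site #1, 8.41 to 8.84 at Site #2 and 8.55 to 9.23 at Site #3, and the highest and the lowest rat of the study both came from Site #1.

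Potassium channel genes showed no member with an unadjusted p under 0.05 in any pair of sites. Kcnc1, a channel of fast-spiking neurons, differed by at most 0.04 between any 2 site means. Kcnq5, a channel of the M-current that holds down repetitive firing, had a mean of 13.004 at Site #1, 13.024 at Site #2 and 12.867 at Site #3. Its difference between Site #2 and Site #3 was -0.16 (95% interval -0.33 to 0.01). Kcnk9, a leak channel that sets the resting potential, differed by 0.16 in the other direction (95% interval -0.05 to 0.37). Nor did Trpc7, Trpv1 (the capsaicin receptor), Htr1d (an inhibitory serotonin receptor) or any of the glutamate receptor group reach that p in a pair of sites. In the last group Grik5, a kainate receptor subunit, had site means of 12.77, 12.73 and 12.74, and Grid2ip, which is a scaffold protein that binds the delta receptor and not a receptor itself, of 5.98, 5.92 and 5.94.

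In the NMDA receptor genes the range between rats of the same site was wider than the range between site means. A range of single rats tends to be wider than a range of means even where site has no effect. Grin2a (ENSRNOG00000033942) and Grin2b (ENSRNOG00000008766) encode the regulatory subunits that give NMDA receptors their kinetics, Grin2b being the early and Grin2a the mature form. Grin2a ran from 11.78 over a median of 12.13 to 12.63 at Site #1, from 11.67 over a median of 12.23 to 12.55 at Site #2, and from 12.12 over a median of 12.29 to 12.57 at Site #3. Grin2b ran from 10.70 to 11.25, from 10.50 to 11.25 and from 10.81 to 11.14 in the same order of sites. The site means of Grin2a differed by at most 0.16 and those of Grin2b by at most 0.06, while the range over all 17 rats was 0.95 for Grin2a. Grin1, the subunit every NMDA receptor needs, stayed between 14.43 and 14.69 in all 17 libraries.

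Grin2a had the largest SD within sites of the 32 genes, 0.32, followed by Ryr1 (0.30), Cacna1e (0.28), Grin2b (0.23) and Cacna2d1 (0.20). The median was 0.11 over the members, 0.07 over all genes tested and 0.09 over genes averaging 1 CPM or more. Of the 1425 genes with a mean within 0.5 log2 units of Grin2a, 0.491% had an SD as large. The corresponding shares were 0.786% for Cacna1e, 2.1% for Grin2b, 2.64% for Cacna2d1 and 2.45% for Ryr1. The smallest SDs were 0.02 for Kcne3, whose low values are compressed, then 0.04 for Htr1d, and, above 1 CPM, 0.05 for Grik5 and 0.06 for Gabbr2. Differences between sites made up a median of 10.5% of the sum of squares of a member, beside 13.2% for all genes. Cacnb3 had 39.0% and P2rx5 31.8%, and Grin2b had 1.74%. Means of so few rats differ even where site has no effect. Such a share is then above 0 as well, and it does not by itself measure an effect of site.

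Of the 5 genes with the widest spreads, all but Ryr1 varied together. After each value was taken as its deviation from the site mean, Grin2a, Grin2b, Cacna1e and Cacna2d1 correlated with each other over the 17 libraries with r between 0.932 and 0.972 in all 6 pairs. These 4 genes were chosen after their values were seen, so that no test is given for the set. Cacna1e encodes the pore of R-type calcium channels and Cacna2d1 the auxiliary subunit that brings such pores to the membrane and binds gabapentin. The mean deviation of the 4 genes was highest, at 0.37, in replicate 1 of Site #2 and lowest, at -0.40, in replicate 4 of the same site. At Site #1 it ran from -0.34 to 0.30, and at Site #3 only from -0.15 to 0.17. The range was thus narrowest at Site #3.

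**Figure D3:**
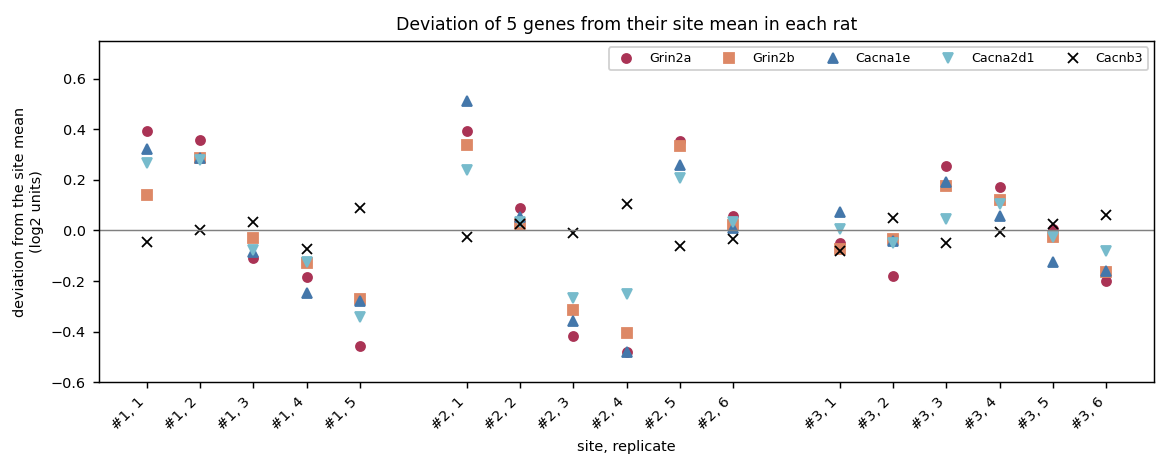
Deviation from the site mean (y axis, log2 units) of Grin2a, Grin2b, Cacna1e, Cacna2d1 and Cacnb3 in each rat (x axis, site and replicate). The first 4 genes move together from rat to rat, from 0.37 on average in replicate 1 of Site #2 to -0.40 in replicate 4 of that site, and Cacnb3 moves little and mostly the other way.

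Further members followed these 4 genes to differing degrees. The correlation with their mean deviation was over 0.6 for 5 of the other 28 members, with 0.805 for Itpr2, 0.779 for Kcnc1, 0.708 for Kcnk10 and 0.601 for Gabbr2 among them. At the other end Cacnb3 had -0.574, the lowest of 6 members under 0. Of all 496 pairs of members 14 had an r over 0.8 and 0 under -0.8, with a median of 0.136. Cacna1h and Ryr1 formed another close pair (0.87). The libraries are the same in every pair and were normalized together. Covariation with the 4 genes was not confined to channels: of the 13679 genes averaging 1 CPM or more, 868 (6.35%) had an r over 0.8 with their mean and 223 (1.63%) an r under -0.8. Col1a1, a gene of fibrous tissue, stood at 10.95 in replicate 5 of Site #1, 10.64 in replicate 3 of Site #2, and 10.70 and 10.07 in replicates 1 and 2 of Site #3, and between 8.53 and 8.95 elsewhere. In these 4 libraries the mean deviation of the 4 genes was -0.34, -0.34, -0.01 and -0.08, and in replicate 4 of Site #2, where it was lowest, Col1a1 was at 8.65. The part of tissue composition in the covariation was not tested.

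**Figure D4:**
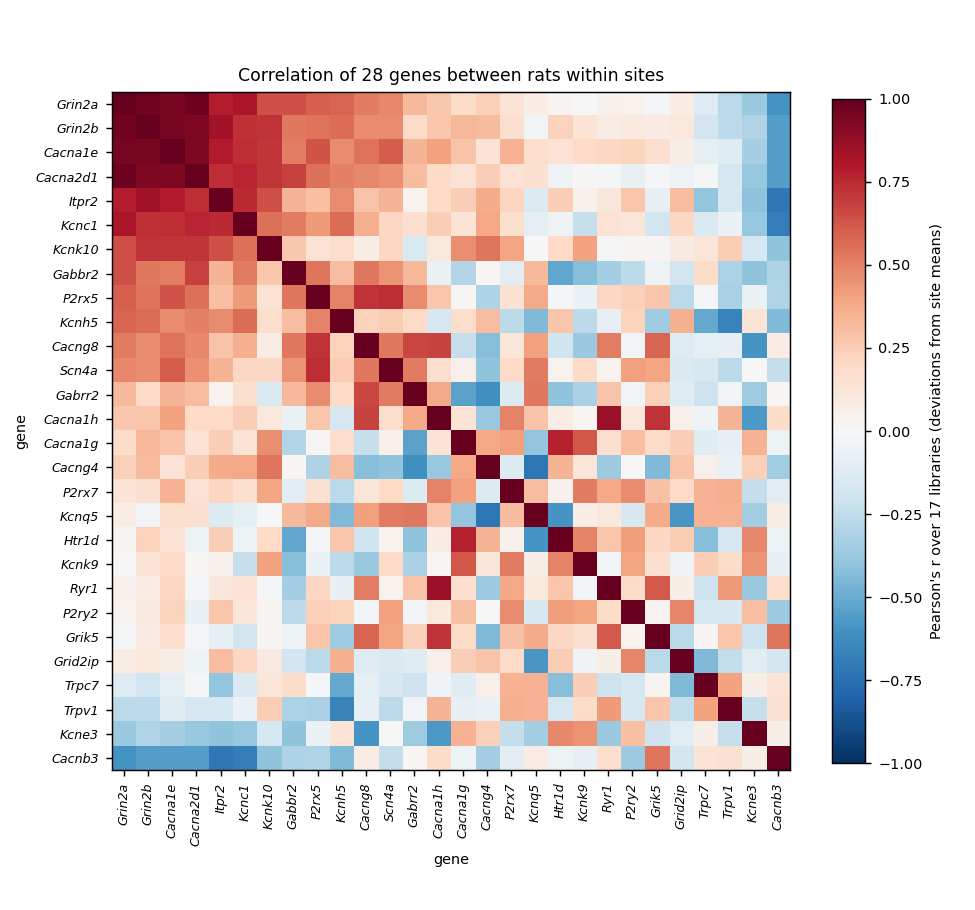
Pearson's r (colour) over the 17 libraries between deviations from site means for every pair of 28 genes, which are ordered on both axes by their correlation with the mean of Grin2a, Grin2b, Cacna1e and Cacna2d1. These 4 genes, Itpr2 and Kcnc1 form the block in the upper left corner, and Cacnb3 at the end is negative against it.

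Among known complexes and close relatives, r differed from pair to pair and, for some, from site to site. The 5 pairs given here were chosen after the values were seen and are described with no test, as Pearson's r over the deviations from site means of the 17 rats and over the rats of each site. Grin2a and Grin2b, both NMDA receptor subunits, had r = 0.965, with 0.959 at Site #1, 0.994 at Site #2 and 0.928 at Site #3. Cacna1e and Cacna2d1, which can share a channel, had 0.932, with 0.966, 0.976 and 0.74 at the same sites. Both pairs were positive at every site. Cacna1e and Cacnb3, which can also share a channel, had -0.554, with -0.313, -0.695 and -0.821, negative at every site. For Cacng4 and Cacng8 r was -0.429, with -0.804, 0.244 and -0.129, and for Itpr2 and Ryr1 it was 0.111, with -0.113, 0.911 and -0.482. In these last pairs the sign of r was thus not the same at every site. Each r of a single site rests on few rats, and some of these values are small, so that their sign is uncertain. Whether r differs between sites was not tested.

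Upstream sequence was available for 20 of the 32 genes in RefSeq (assembly GRCr8). Those of Cacna1e and Cacna2d1 are shown because the genes vary together, that of Itpr2 because it follows them and had the smallest p between Site #1 and Site #3, and that of Cacnb3 because it ran against them. Each is the 250 bases before the annotated start, 5′ to 3′ on the gene's strand, with every match to GGGCGG or its reverse complement CCGCCC, the core of a GC box that Sp factors bind, in capitals. They lie at chr13:69444811-69445060 (minus strand) for Cacna1e, chr4:20330148-20330397 (minus strand) for Cacna2d1, chr4:181134868-181135117 (minus strand) for Itpr2 and chr7:131666301-131666550 (plus strand) for Cacnb3.
Cacna1e: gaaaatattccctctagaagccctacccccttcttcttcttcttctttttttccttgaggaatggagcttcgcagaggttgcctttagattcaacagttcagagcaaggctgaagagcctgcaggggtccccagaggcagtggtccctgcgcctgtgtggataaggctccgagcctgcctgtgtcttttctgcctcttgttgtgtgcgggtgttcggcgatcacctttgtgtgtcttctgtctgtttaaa
Cacna2d1: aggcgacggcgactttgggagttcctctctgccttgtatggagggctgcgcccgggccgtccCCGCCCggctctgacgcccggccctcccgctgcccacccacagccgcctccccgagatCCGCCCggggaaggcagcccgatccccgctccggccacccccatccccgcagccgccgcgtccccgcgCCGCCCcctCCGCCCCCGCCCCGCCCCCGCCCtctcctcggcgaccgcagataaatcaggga
Itpr2: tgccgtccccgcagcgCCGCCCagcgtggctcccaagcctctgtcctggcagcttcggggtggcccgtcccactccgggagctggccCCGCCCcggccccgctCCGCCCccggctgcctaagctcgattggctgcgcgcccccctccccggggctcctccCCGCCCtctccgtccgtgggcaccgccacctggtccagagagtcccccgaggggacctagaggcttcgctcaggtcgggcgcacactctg
Cacnb3: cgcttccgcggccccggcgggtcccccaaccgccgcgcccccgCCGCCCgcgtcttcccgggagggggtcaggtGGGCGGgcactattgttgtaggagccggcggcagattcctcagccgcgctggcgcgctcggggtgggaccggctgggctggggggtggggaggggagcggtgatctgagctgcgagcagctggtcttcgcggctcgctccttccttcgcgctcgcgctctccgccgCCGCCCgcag
The stretch of Cacna1e holds 51.2% G and C and 0 matches. Those of Cacna2d1, Itpr2 and Cacnb3 hold 77.2%, 76.0% and 76.4% and 7, 4 and 3 matches, some of which overlap. Over the 20 genes 13 stretches had a GC box, beside 32.4% of all 27457 promoters of the same length, and the median G and C content was 65.0%, beside 52.0%. The palindromic NRF1 motif occurred in 2 of the 20 (5.3% of all), TGACGTCA, the full cAMP response element, in 0 (1.7%), CACGTG in 1 (5.79%) and TATAAA in 1 (13.1%), each searched on both strands. The 20 genes came from lists of differentially methylated genes, and the part of that choice in their base content was not tested.

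Genes that work with the channels were read from a list of 39 scaffold, release, pump, transporter and NMDA receptor genes. Of these 39, 2 were DEGs in Site #2 vs Site #3, where 1.05% of all genes tested were, and 0 in each of the other 3 comparisons. Prrt2, a presynaptic protein that restrains sodium channels and transmitter release, was 12.94 ± 0.03 at Site #2 (SD, n = 6) and 12.77 ± 0.06 at Site #3 (SD, n = 6), without overlap, and was lower at Site #3 by -0.17 (adjusted p = 0.0219, limma). Atp1b1, the beta subunit of the sodium pump, ran from 16.54 to 16.75 and from 16.36 to 16.50, again without overlap, and was lower by -0.18 (adjusted p = 0.037, limma). Of all genes, 1.95% had no overlap in this pair of sites. At Site #1 both genes overlapped with both other sites, with 12.72 to 13.02 for Prrt2 and 16.40 to 16.67 for Atp1b1. Both calls were lost in some fits that left out 1 library, with an adjusted p of up to 0.0549 for Prrt2 and 0.0884 for Atp1b1, and Atp1b1 fell by 0.07 only, with an adjusted p of 0.221, after quantile normalization (limma). At an unadjusted p under 0.05, 6 of the 39 were higher and 3 lower at Site #3 than at Site #2, which is 23.1% of the list beside 14.8% of all genes tested and 21.1% of those averaging 1 CPM or more. Shank1, a postsynaptic scaffold, had the largest of these differences, 0.28 (adjusted p = 0.151, limma).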

How the data were processed

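The 17 RNA-Seq libraries, 1 per hippocampus, were grouped by the site in the sample labels. Upstream, the authors had used Trimmomatic for trimming, HISAT2 for alignment to rn6, featureCounts for counts per Ensembl gene and DESeq2 for DEGs. The deposited values are on a log2 scale, normalized between libraries by a step not named in the sources used here, with a compressed spread for low values, so that differences of low genes are understated. The files hold no counts and no coordinates. Of 32494 genes listed, 9830 at exactly 0 in all libraries were left out.

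A separate two-sided limma fit (lmFit, then eBayes with its mean-variance trend) was made for each pair of sites, and Site #3 was set against the mean of the other sites over all 17 libraries. P values were adjusted over the 22664 genes by the Benjamini-Hochberg method. A gene was called at an adjusted p under 0.05. The script was tested on simulated libraries. Differences are the second site minus the first. No pseudocount was added. Mean CPM was approximated as 2 to the deposited value, with each library scaled to the same sum of 1000000. The libraries are of separate rats, and a rat's library was sequenced at 1 core facility. P values set the difference between site means against the spread between rats of a site, with 1 laboratory per site. The fits treat all rats as independent, though those of Site #3 were housed in pairs and their cages are not known here.

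The 32 genes and the lists of partner genes and cell type markers were chosen with earlier results of these data known, and symbols came from the study's supplementary lists, 1 of them in part. Some of the genes are not reported here by name, though they stay in the fits and counts. Of the others, full statistics were given for the 4 members with the smallest p in each comparison, and partner genes were named where they were called or where a comparison turned on them. Other members and pairs named for their spread or covariation were chosen after their values were seen. Marker lists were for microglia, astrocytes, neurons, oligodendrocytes, endothelium and mural cells, fibrous and meningeal cells, and choroid plexus. None of their genes was called in a comparison. Libraries with the same replicate number are different rats, so that the replicate block was an alternative only, beside a CPM filter, array weights, 1 fit of all libraries, no trend, robust estimation, quantile normalization, median centring and leaving out each library. Promoter sequences are RefSeq's, of assembly GRCr8. The software was limma 3.58.1 in R 4.3.3, and scipy 1.17.1, pandas 2.3.3, numpy 2.4.6 and matplotlib 3.10.9 in Python 3.11.15.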

Additional observations from a re-analysis of the deposited data

Results flagged for a closer look

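Single rats were compared with the other rats of their site by Dixon's test, for each of the 32 genes at each site, which made 96 groups. In 2 of them (2.08%) 1 rat stood apart, where chance alone gives about 1 in 20. For Kcne3, replicate 3 of Site #1 was at 0.417, and the other rats of that site were between 0.354 and 0.372. This gene averaged under 1 CPM, where the deposited values are compressed. For Cacng8, replicate 3 of Site #3 was at 12.35, and the other 5 rats were between 12.12 and 12.15.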

How the results depend on the processing

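The count of members called stayed at 0 in 77 of 83 alternative fits, including every fit without 1 library, where it ran from 0 to 0 in all 4 comparisons. It became 1 between Site #2 and Site #3 with all 17 libraries in 1 fit, without the mean-variance trend and with robust estimation, and between Site #3 and the mean of the other sites with array weights, without the trend and with robust estimation. The differences with the 4 smallest p of a comparison, or without overlap, numbered 16. None changed direction in 328 alternative values, each being 1 difference in 1 alternative fit. Most of these fits left out 1 library and so share nearly all rats. With a filter at a mean of 1 CPM, 29 of the 32 members were tested. The median difference over members moved by less than the SD between libraries of the members' median (0.05) in 71 of 71 alternatives, but it ran across 0 between Site #2 and Site #3 (-0.01 to 0.02) and between Site #3 and the mean of the others (-0.02 to 0.00). With the replicate number as a block the members called remained 0 in all 4 comparisons. All genes called with the block numbered 0, 0, 43 and 62, beside 0, 23, 239 and 174 without it. Deviations of same-numbered rats had a mean correlation of 0.00, -0.17 and 0.03 over the 3 pairs of sites. Single pairs of rats ran from -0.46 to 0.39. The means show no pairing by number, and a shared order of processing was not tested. Of the partner genes, 2 were called between Site #2 and Site #3, and 1 with all libraries in 1 fit, 1 after quantile normalization, 0 with the block, and from 0 to 2 without 1 library. Both calls were lost without replicate 3 of Site #2 and without replicates 2, 5 or 6 of Site #3, each left out singly. Between Site #3 and the mean of the others 1 was called with the CPM filter, 1 with array weights, and from 0 to 1 without 1 library (1 without replicate 4 of Site #1). For the partner genes all of these alternatives were chosen after seeing the data. The depth of the libraries is unknown, and the number of rats and the test used limit which differences could pass.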
